A study of Mus musculus with 3 samples.

Results

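The genes described here are 10 blood vessel genes: the angiopoietin ligands Angpt1 and Angpt2, their receptors Tek (Tie2) and Tie1, the peptide Apln and its receptor Aplnr, the tip-cell gene Esm1, the adhesion molecule Mcam, and the angiopoietin-like genes Angptl2 and Angptl4. They were chosen by name, and all 10 were among the 32285 genes of each of the 3 count matrices. The study profiled single cells from the synovium and infrapatellar fat pad of mouse knees by droplet-based 3' RNA sequencing after destabilisation of the medial meniscus (DMM), a surgical model of post-traumatic osteoarthritis. The control library came from wild-type mice at 2 months of age. The other libraries came from mice operated on at 2 months of age and taken 1 week or 2 months later, so the 2-month library was also from older mice. Each library pooled tissue of 5 to 10 mice and live cells were sorted, and there was 1 library per group. The sources used here do not say whether the controls had a sham operation, nor the sex of the mice.

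In growing vessels, a leading tip cell senses growth factors and is followed by stalk cells that form the tube. Angiopoietin-1 from cells around the vessel activates the receptor Tek on endothelium and favours a quiet, tight vessel wall, whereas angiopoietin-2, made largely by the endothelium itself, can oppose it during remodelling, and Tie1 modulates Tek. Apelin is made by sprouting endothelium and acts on its receptor Aplnr, Esm1 encodes a proteoglycan secreted by tip cells, Mcam (CD146) is a surface adhesion molecule of endothelium and mural cells, and Angptl4 inhibits lipoprotein lipase.

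Promoter sequence was held for 6 of the 10 genes (Angptl2, Tek, Tie1, Mcam, Esm1 and Apln) in a RefSeq table of build GRCm38.p6, as the 250 bases before the transcript start used there. For Tek, Esm1 and Apln this window lies outside the gene's GENCODE span, whereas 212 of the Tie1 bases and 189 of the Mcam bases lie inside it, and the start used for Angptl2 matches no GENCODE transcript start. Those of Apln, Esm1 and Tek are shown because these genes had different patterns over the libraries in endothelium: Apln was higher at 1 week, whereas Esm1 and Tek were close to the control. Sequences run 5′ to 3′ on the gene's strand, and capitals mark the ETS core GGAA on either strand, read as TTCC when it lies on the other strand.
Apln (chrX:48034854-48035103, minus strand): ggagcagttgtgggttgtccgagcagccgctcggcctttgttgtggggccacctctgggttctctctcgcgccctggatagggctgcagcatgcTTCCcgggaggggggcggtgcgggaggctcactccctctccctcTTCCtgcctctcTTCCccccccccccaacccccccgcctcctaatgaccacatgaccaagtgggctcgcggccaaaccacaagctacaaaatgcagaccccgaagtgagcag
Esm1 (chr13:113209409-113209658, plus strand): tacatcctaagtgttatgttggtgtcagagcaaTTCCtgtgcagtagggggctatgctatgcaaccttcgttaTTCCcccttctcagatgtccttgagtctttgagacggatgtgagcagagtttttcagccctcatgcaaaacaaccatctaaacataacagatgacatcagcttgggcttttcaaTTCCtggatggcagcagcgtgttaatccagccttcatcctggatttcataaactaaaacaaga
Tek (chr4:94739039-94739288, plus strand): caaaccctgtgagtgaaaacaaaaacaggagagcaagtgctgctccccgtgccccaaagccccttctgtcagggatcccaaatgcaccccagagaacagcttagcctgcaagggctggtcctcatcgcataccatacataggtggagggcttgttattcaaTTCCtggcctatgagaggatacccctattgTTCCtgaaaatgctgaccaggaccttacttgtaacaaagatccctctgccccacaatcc
The core GGAA, the letters bound by ETS factors that act in endothelium, was found 3 times in the windows of Apln and Esm1, 2 times in those of Tek and Angptl2, 7 times in that of Tie1 and 1 time in that of Mcam. Of 32536 promoters of 250 bases, 93.43% held it, with a median of 3 matches, so its presence sets none of the 6 apart. How many promoters reach the 7 matches of Tie1 was not counted. The hypoxia response core ACGTG (16.65% of promoters) and the AP-1 motif TGANTCA (6.728%), each searched on both strands, were in none of the 6 windows.

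In GRCm38 the ligand genes lie at chr15:42424723-42676977 (Angpt1, ENSMUSG00000022309) and chr8:18690263-18741562 (Angpt2, ENSMUSG00000031465), both on the minus strand. Tek (chr4:94739289-94874976, plus) and Tie1 (chr4:118471191-118490061, minus) are on chromosome 4. Aplnr (chr2:85136225-85139923) and Angptl2 (chr2:33216069-33247717) are on the plus strand of chromosome 2, and Apln (chrX:48025146-48034853) is on the minus strand. The others are Angptl4 (chr17:33773750-33781830, minus), Esm1 (chr13:113209659-113218098, plus) and Mcam (chr9:44134469-44142727, plus). Angpt1, Angpt2, Angptl2, Esm1 and Mcam each overlap an annotated gene on the opposite strand, and whether the counting used the strand is not given in the sources used here.

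Filtering (at least 500 genes and at most 10% mitochondrial counts per barcode) kept 8099, 12316 and 9782 cells of the control, 1-week and 2-month libraries, with medians of 10871, 12920 and 13543 unique molecules (UMIs) per cell. Values below are in this order of libraries unless stated. Between 21 and 30 barcodes were shared by any 2 libraries. Cells were gated by defining UMIs: endothelium (at least 1 Cdh5, no Ptprc) held 1270, 1784 and 1157 cells in the control, 1-week and 2-month libraries, mural cells, which wrap vessels (Notch3, without Pdgfra, Ptprc or Cdh5), 694, 711 and 423, and fibroblasts (Pdgfra, without Ptprc or Cdh5) 3781, 4748 and 5317. Within endothelium a venular gate (at least 4 UMIs of Selp and Ackr1, with 250, 702 and 424 cells) and a capillary gate (at least 4 UMIs of Gpihbp1 and Rbp7, with 359, 285 and 195 cells) were set apart. All 8 endothelial markers were detected in the endothelial gate, with a summed level of 4037, 4660 and 4973 UMIs scaled to a gate total of 1000000 (CPM) against 50.7 to 77.1 CPM in fibroblasts. Among the 8 is Cdh5, which defines the endothelial gate and is excluded from the fibroblast gate, so part of this difference was set by the gates. The endothelial gate also held fibroblast RNA: the 7 fibroblast markers, all detected, summed to 7697, 16163 and 6648 CPM, and about 1 cell in 5 had a Pdgfra UMI (20.6%, 20.4% and 21.3%).

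Levels below are CPM of the UMIs summed over a gate in a library, with exact Poisson 95% intervals, and ratios carry exact conditional 95% intervals. These intervals carry no information on how mice differ, since they describe counting error alone, and with 1 library per group no test between libraries was possible. Counts of 3' ends depend on the transcript, so levels are compared between gates and libraries for 1 gene at a time, never between genes. A gene is called higher or lower where the 2 libraries together gave 50 UMIs or more and the ratio was 2-fold or beyond, in either direction.

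By share of UMIs, Aplnr, Tie1, Apln, Tek and Esm1 were mainly endothelial, Angpt1, Angptl2 and Angptl4 mainly of fibroblasts, and Angpt2 of endothelium and mural cells. The largest share of Mcam UMIs lay in mural cells or endothelium depending on the library. Of all UMIs of Aplnr in a library, 92.1%, 89.6% and 92.0% lay in endothelium (control, 1 week, 2 months), as did 88.4%, 87.4% and 92.8% of those of Tie1 and 85.3%, 72.3% and 82.4% of those of Apln. Fibroblasts held 81.9%, 71.3% and 79.4% of the Angpt1 UMIs and 76.4%, 68.8% and 79.9% of the Angptl2 UMIs. Tek was an endothelial gene with a fibroblast share, which was 23.9%, 5.13% and 21.7%. For Mcam, mural cells held 55.7% of the UMIs in the control and 27.4% at 1 week, endothelium 25.0% and 55.4%. Such shares also depend on the number and depth of cells in a gate (694 and 711 mural, 1270 and 1784 endothelial cells). In CPM, mural cells stood above endothelium in every library, as given below.

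**Figure D1:**
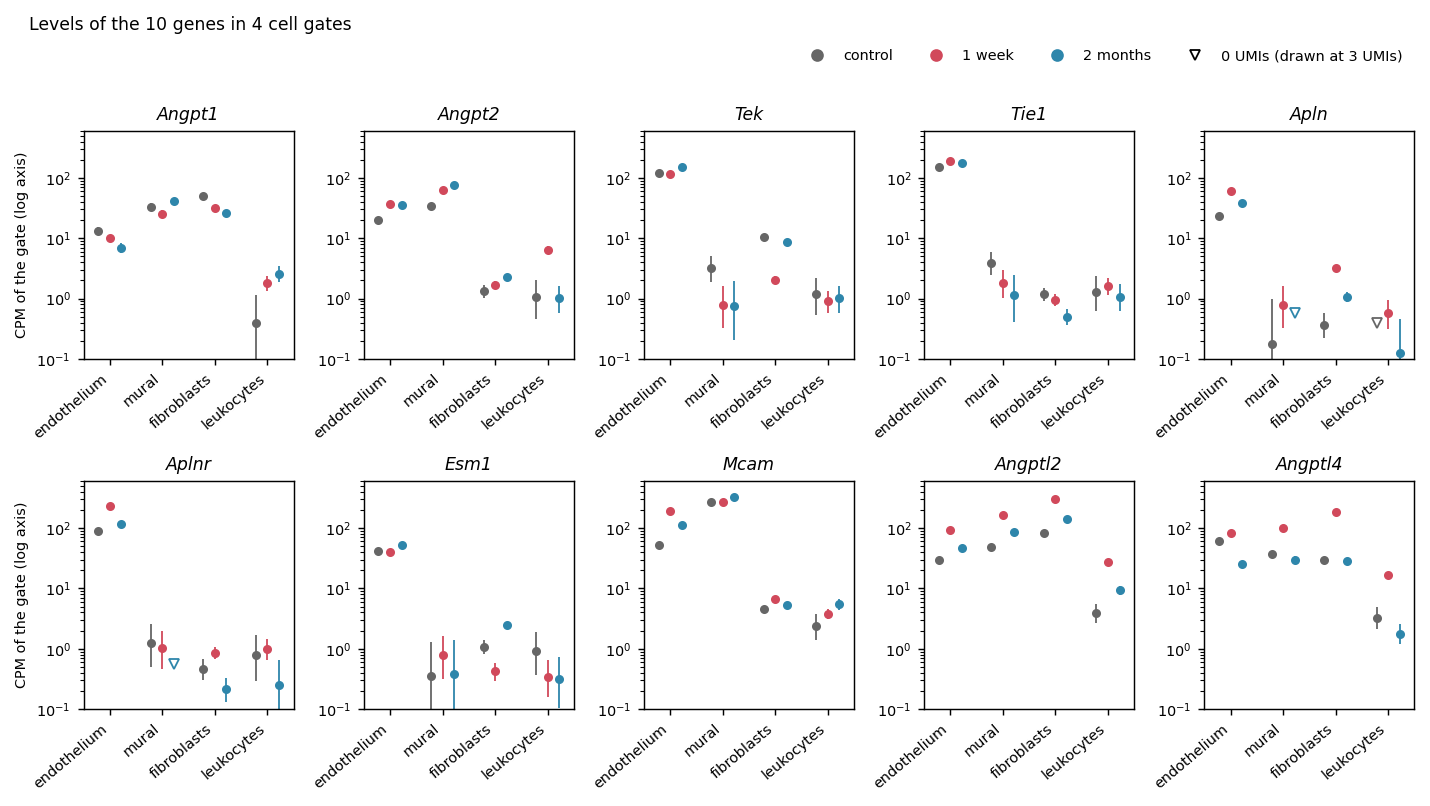
Level of each of the 10 genes (CPM, log axis) in endothelium, mural cells, fibroblasts and leukocytes of the 3 libraries, with bars for 95% Poisson intervals and an open triangle at the value of 3 UMIs where none was counted. Aplnr and Mcam in endothelium and Angptl2 and Angptl4 in fibroblasts stand highest in the 1-week library, and Angpt1 in fibroblasts stands highest in the control.

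In endothelium at 1 week, Apln, Aplnr, Mcam and Angptl2 were at least 2-fold higher than in the control, and none of the 10 genes was lower by that fold. These 4 of 10 genes compare with 16.1% of the 12751 genes with enough UMIs, which were called in either direction, and the median log2 ratio was 0.67 for the 10 genes against 0.02 for all genes. Of the 4, Angptl2 at 1 week was at 31.4% of its fibroblast level, within the range of 6 fibroblast markers in this gate (26.1% to 31.6%). Its ratio stayed at 2.495 or above under 12 alternative settings. At 2 months 2 of 10 were called, Mcam higher and Angptl4 lower (background 6.55%, medians 0.35 and 0.06). Between the operated libraries 2 of 10 were lower at 2 months than at 1 week, Angptl2 and Angptl4 (background 12.1%, medians -0.60 and 0.06). The call of Angptl2 (0.495) was at the line and held under 6 of 12 alternative settings (0.452 to 0.561), and Aplnr, at 0.501, passed the line under several of them, for example at 0.495 with Pdgfra-positive cells left out. The receptors Tek and Tie1 were called in none of these comparisons.

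**Figure D2:**
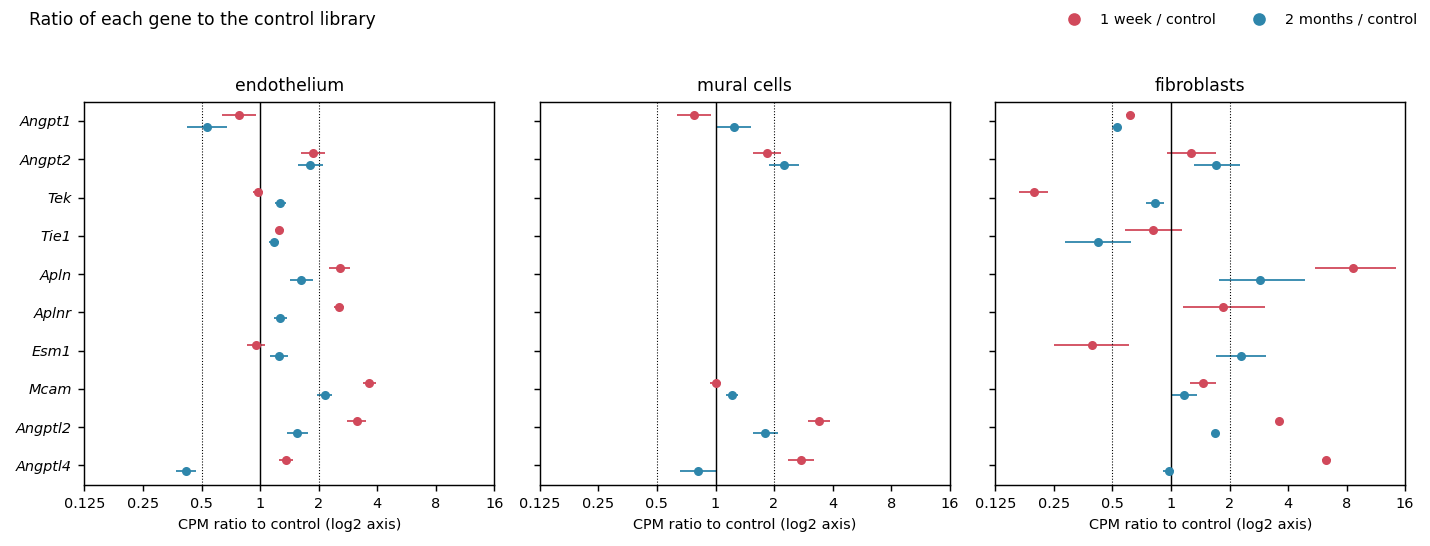
Ratio to the control (log2 axis, dotted lines at 2-fold) at 1 week and 2 months for genes with 50 or more UMIs in both libraries together, in endothelium, mural cells and fibroblasts, with 95% counting intervals. Mcam, Angptl2, Apln and Aplnr lie above the upper line in endothelium at 1 week, and in fibroblasts at that time Apln lies farthest above 1 and Tek farthest below.

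The ligand Angpt1 was highest in fibroblasts and mural cells. In fibroblasts it was at 50.8 CPM (48.9 to 52.7), 31.4 (30.2 to 32.6) and 26.7 (25.7 to 27.7). Both operated libraries were below the control, at ratios of 0.618 (0.586 to 0.652) and 0.525 (0.498 to 0.555), short of 2-fold. In mural cells the levels were 32.9 CPM (28.4 to 38.0), 25.5 (22.3 to 29.1) and 41.0 (35.7 to 46.8). The 1-week value was thus the lowest there and the 2-month value the highest, so that mural cells stood below fibroblasts in the control and at 1 week and above them at 2 months, with intervals that did not overlap. Endothelium was at 13.0, 10.1 and 6.98 CPM, which is 25.7%, 32.3% and 26.2% of the fibroblast level, near the 26.2% to 29.5%, 26.1% to 31.6% and 20.8% to 25.0% at which 6 fibroblast markers stood in the same gate.

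Among fibroblasts, Angpt1 was low in the lining gate (at least 3 UMIs of Clic5 and Tspan15), at 4.73, 1.69 and 2.51 CPM. It was at 47.8 CPM in the control and 39.4 CPM at 2 months in the progenitor gate (at least 3 UMIs of Pi16 and Dpp4), whose 28 cells at 1 week were too few to compare. In the activated gate (at least 10 UMIs of Postn and Cthrc1) Angpt1 was at 79.8, 33.9 and 36.8 CPM, with 109, 3919 and 637 cells. The 1-week fibroblasts were mostly of that gate, so the comparison of whole fibroblast sums also compares different mixtures, and within the gate Angpt1 at 1 week was at 0.425 of its control level.

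The antagonist ligand Angpt2 was shared by endothelium and mural cells and was higher in both operated libraries in each gate taken as a whole. In endothelium it was at 19.9 CPM (17.6 to 22.5), 37.3 (34.9 to 39.8) and 36.2 (33.5 to 39.1). The operated libraries overlapped each other and lay above the control, with ratios of 1.87 (1.63 to 2.16) and 1.82 (1.57 to 2.10), under the 2-fold line. Within endothelium the difference at 2 months was not general: the capillary ratio was 1.06, or 0.864 with equal weight per cell. In the arterial gate, described below, Angpt2 was lower at 2 months than in the control. In the lymphatic cells of the 2-month library Angpt2 was above the level of the whole gate. In mural cells it was at 33.8 CPM (29.2 to 38.9), 62.2 (57.1 to 67.7) and 75.9 (68.6 to 83.7). The ratio there was 1.84 (1.56 to 2.18) at 1 week and 2.24 (1.89 to 2.68) at 2 months. Fibroblasts (1.33, 1.70 and 2.28 CPM) were far below both.

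The mural gate changed in makeup, and the values of Angpt2 are therefore also given within it. Its 6 smooth muscle markers, all detected, summed to 32140, 8000 and 24217 CPM, and its 7 pericyte markers, which include the gate's own Notch3, to 1655, 6918 and 4346. In mural cells with at least 3 Myh11 UMIs, a smooth muscle gene (605, 339 and 360 cells), Angpt2 was at 34.1, 73.9 and 81.2 CPM, 2.17 and 2.38 times the control. In the pericyte gate at 1 week (103 cells without Myh11 and with at least 5 Rgs5 UMIs) it was at 78.7 CPM.

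Angpt2 was also seen in leukocytes of the 1-week library, at 6.44 CPM against 1.05 in the control and 1.01 at 2 months. UMIs were found in 145 of 2901 leukocytes at 1 week, 5.00%, against 0.956% and 1.02%. Of those 145 cells 48.3% had a UMI of Acp5, 40.7% of Ctsk and 23.4% (34 cells) of Atp6v0d2, genes of osteoclasts, the bone-resorbing cells of the macrophage lineage, compared with 26.7%, 24.1% and, for Atp6v0d2, 193 of 2756 leukocytes without Angpt2. Mmp9 was found in 14.5% and 15.2% of them. Of the 44 leukocytes with UMIs of all 4 genes, 13 (29.5%) had Angpt2. These genes were picked after the values were seen, and depth was uneven: the median was 12786 UMIs in leukocytes with Angpt2, 7918 in those without and 21586 in the 44 cells. After thinning to 3000 UMIs the shares of leukocytes with Angpt2 were 0.319%, 1.61% and 0.227%. Angpt2 in leukocytes at 1 week stood at 17.3% of its endothelial level. There 7 endothelial markers were at 0.580% to 33.1% (median 1.05%), and Tek, Tie1, Apln, Aplnr, Esm1 and Mcam at 0.428% to 2.00%. The marker range is too wide to decide on stray endothelial RNA, whose part was not tested.

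The receptor Tek in endothelium was at 121 CPM (115 to 127), 118 (114 to 122) and 154 (148 to 159). The control and 1-week values overlapped and the 2-month value was higher, by 1.27-fold (1.19 to 1.35). Tie1 was at 151 CPM (144 to 157), 189 (184 to 195) and 177 (171 to 184). The operated libraries were above the control by 1.26-fold (1.19 to 1.33) and 1.18-fold (1.11 to 1.25). In mural cells Tek had 18, 7 and 4 UMIs in all and Tie1 22, 16 and 6.

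Tek in fibroblasts was low at 1 week. Its level was 10.4 CPM (9.58 to 11.3), 2.05 (1.76 to 2.38) and 8.65 (8.07 to 9.25). The 1-week value was at 0.197 of the control (0.165 to 0.233), and the 2-month value was 4.22 times the 1-week value (3.58 to 4.99). In cells thinned to 3000 UMIs, 3.28%, 0.708% and 3.26% of fibroblasts had a Tek UMI (10.2%, 3.01% and 9.70% without thinning, at median depths of 13153, 16492 and 16085 UMIs). Among leukocytes 1.08%, 0.793% and 1.02% had a UMI without thinning, at median depths of 8987, 8149 and 8468 UMIs.

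The progenitor gate held 332 of the 563 fibroblast Tek UMIs in the control and 424 of 844 at 2 months, but 10 of 175 at 1 week. There 209 of 579 control cells (36.1%) and 241 of 615 cells at 2 months (39.2%) had a UMI. Levels in that gate were 43.5 CPM in the control and 51.3 at 2 months, a ratio of 1.18 (1.02 to 1.37). The 28 progenitor-gate cells at 1 week had 37.8 CPM, and the 225 cells of that library in more than 1 of the 3 fibroblast gates held 70 UMIs (15.2 CPM). In activated-gate cells Tek was at 4.69, 1.21 and 1.24 CPM. The lower level over all fibroblasts at 1 week thus stands beside a progenitor gate of only 28 of 4748 fibroblasts, whose part in the difference was not tested. Tek in fibroblasts stood at 8.63%, 1.74% and 5.63% of its endothelial level. It lay above the medians of 7 endothelial markers there (0.708%, 0.607% and 0.282%) and within their ranges (0.522% to 16.5%, 0.419% to 9.94% and 0.222% to 6.97%). Those ranges are too wide to decide on stray endothelial RNA, whose part was not tested.

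**Figure D3:**
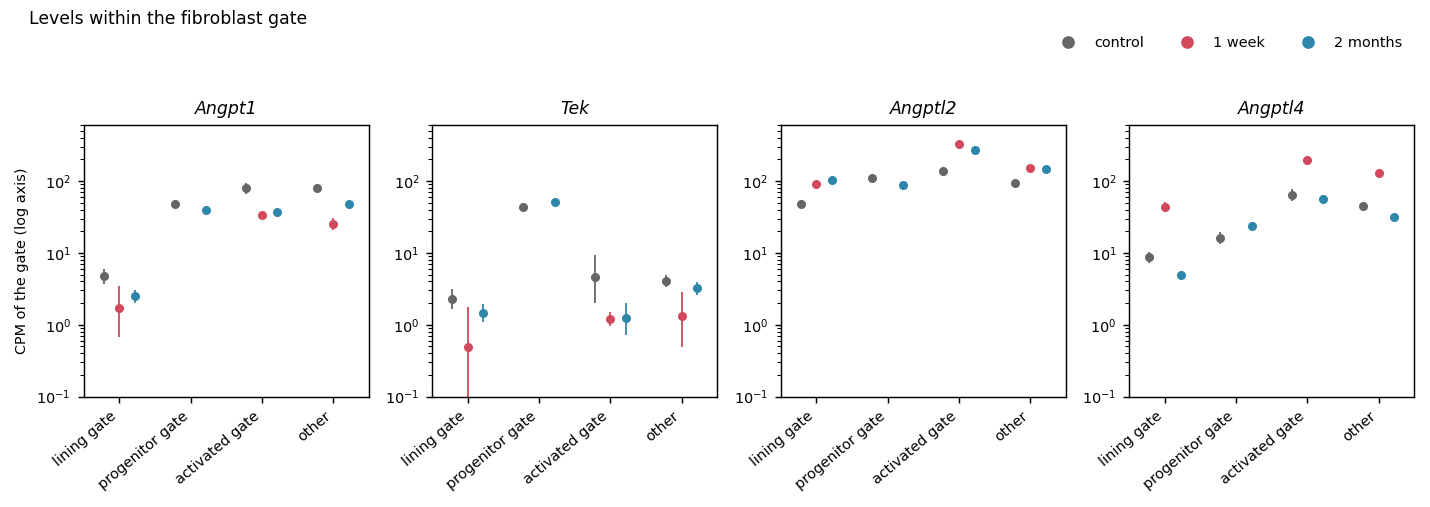
Level of Angpt1, Tek, Angptl2 and Angptl4 (CPM) in the lining, progenitor, activated and other fibroblast gates of the 3 libraries, with 95% Poisson intervals; the progenitor gate at 1 week is not drawn because it held 28 cells. Tek is highest in the progenitor gate, and Angptl2 and Angptl4 are highest in the activated gate at 1 week.

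Both genes of the apelin pair were highest at 1 week in endothelium. Apln in endothelium was at 23.6 CPM (21.1 to 26.4), 60.7 (57.6 to 63.8) and 38.5 (35.7 to 41.5). The 3 intervals were apart, with 1 week highest, 2.57 times the control (2.27 to 2.91), and 2 months at 1.63 times (1.42 to 1.87). In the control 1 cell held 138 of the 308 Apln UMIs, and without the cell of most Apln UMIs in each library the ratios were 4.41 and 2.65.

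The receptor Aplnr was at 91.0 CPM (85.8 to 96.3), 231 (225 to 237) and 116 (111 to 121) in endothelium. It was 2.54 times the control at 1 week (2.39 to 2.71) and 1.27 times at 2 months (1.18 to 1.37). The share of endothelial cells with an Aplnr UMI was 34.9%, 65.5% and 44.9%, and 20.8%, 41.2% and 23.7% after thinning to 3000 UMIs. For Apln the shares were 5.28%, 21.1% and 11.8%, and 2.76%, 10.1% and 5.30% after thinning. Thinning left out 157, 31 and 31 cells under 3000 UMIs, and median depths in endothelium were 8388, 11485 and 13266 UMIs. At most 0.862% of leukocytes had an Aplnr UMI and at most 0.517% an Apln UMI, without thinning.

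**Figure D4:**
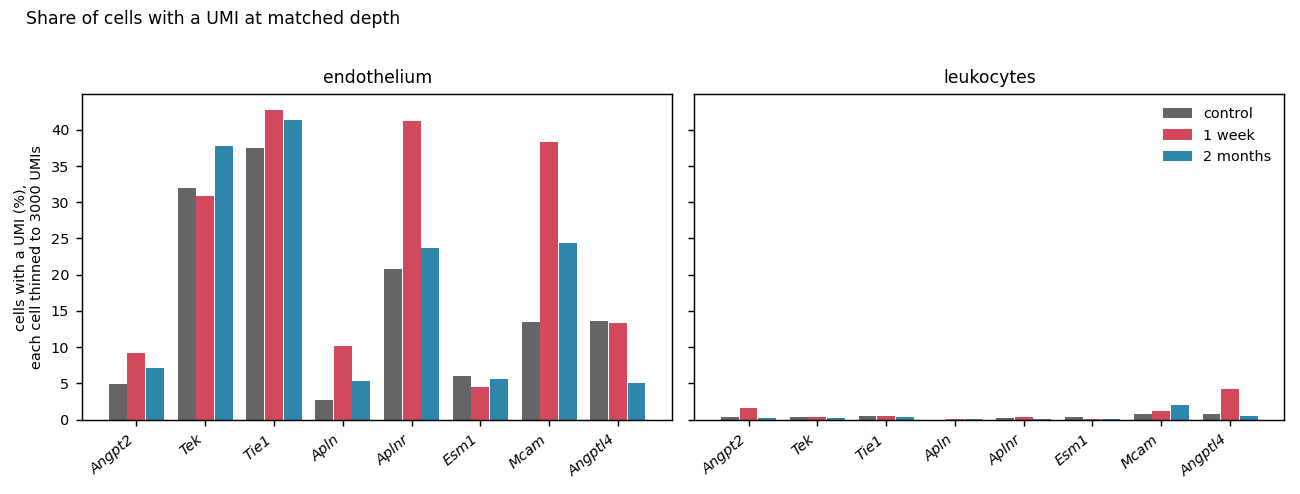
Share of cells with a UMI of each gene after every cell was thinned to 3000 UMIs, in endothelium and in leukocytes of the 3 libraries. Aplnr, Mcam, Apln and Angpt2 are found in the largest share of endothelial cells in the 1-week library, and the leukocyte bars are far lower.

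In the venular gate, Apln was at 16.5 CPM (46 UMIs), 49.9 and 44.3, so both operated libraries were higher, by 3.02-fold (2.22 to 4.18) and 2.68-fold (1.96 to 3.74). In the capillary gate it was at 17.96, 109.5 and 14.7 CPM. There the 1-week library was 6.10 times the control (4.69 to 8.05) and the 2-month library 0.818 times (0.544 to 1.22), an interval that includes 1. The venular and capillary gates thus had similar Apln levels in the control, with capillary cells ahead at 1 week and venular cells ahead at 2 months. Aplnr was higher at 1 week in each gate, at 124, 285 and 158 CPM in venular and 121, 277 and 124 CPM in capillary cells.

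The arterial gate (at least 2 UMIs of Gja5 and Sema3g, with 257, 149 and 162 cells, which can also lie in the other gates) had almost no apelin in the control. Apln there had 1 UMI, 138 UMIs (51.8 CPM) and 17 UMIs (6.43 CPM). Aplnr was at 13.0, 135 and 35.5 CPM, 10.3 times the control at 1 week (7.42 to 14.8). Esm1 was at 24.7, 89.7 and 37.4 CPM in the same cells, a ratio of 3.63 at 1 week (2.78 to 4.78). Apln, Aplnr, Esm1 and Mcam (86.8, 275 and 145 CPM) were thus each highest at 1 week in arterial-gate cells, and Angpt2 was at 12.0, 28.1 and 5.29 CPM.

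Apelin outside endothelium was low. In fibroblasts it had 20, 273 and 104 UMIs, or 0.370 CPM (0.226 to 0.572), 3.20 (2.83 to 3.60) and 1.07 (0.871 to 1.29). That is 8.63 times the control at 1 week (5.48 to 14.4) and 2.88 times at 2 months (1.77 to 4.90). Fibroblast Apln stood at 1.57%, 5.27% and 2.77% of its endothelial level. It lay above the medians of 7 endothelial markers there (0.708%, 0.607% and 0.282%). It was within their ranges (0.522% to 16.5%, 0.419% to 9.94% and 0.222% to 6.97%), which are too wide to decide on stray endothelial RNA, whose part was not tested. In thinned cells 0.122%, 0.878% and 0.281% of fibroblasts had an Apln UMI. Mural cells had 1, 7 and 0 Apln UMIs and 7, 9 and 0 Aplnr UMIs, and 0 UMIs at 2 months allow up to 0.569 CPM when taken as 3 UMIs, or 0.700 CPM by the 95% interval.

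Over endothelium as a whole, Esm1 followed another pattern from Apln. In endothelium it was at 42.0 CPM (38.5 to 45.6), 39.8 (37.4 to 42.3) and 52.2 (48.9 to 55.7). The control and 1 week overlapped, and 2 months was 1.24 times the control (1.12 to 1.39), but 0.918 times with stricter gates and 0.869 times with equal weight per cell. Among the venular, capillary and arterial gates it was highest in the capillary gate, at 108, 118 and 211 CPM, against 9, 21 and 1 UMIs in the venular gate. The arterial gate, described above, also held Esm1 and, like Apln, had most of it at 1 week. The capillary ratio was 1.09 (0.956 to 1.24) at 1 week and 1.96 (1.72 to 2.23) at 2 months. In the 2-month capillary gate 13.8% of cells were lymphatic by Prox1 and Mmrn1 UMIs, and the 6 lymphatic markers, all detected in that library, summed to 3867 CPM against 28.5 in the control, where Mmrn1, Ccl21a and Reln were at 0. Without those cells the ratio was 2.28.

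**Figure D5:**
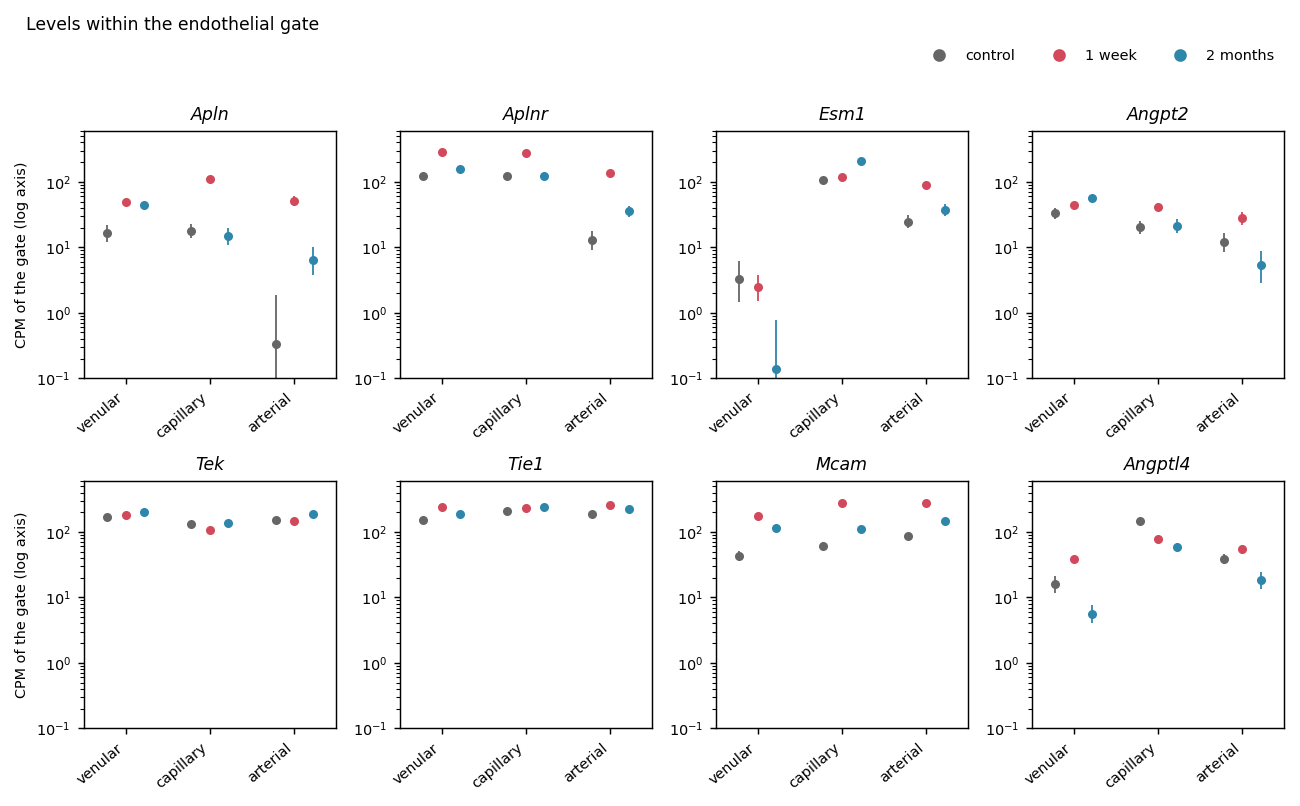
Level (CPM) of 8 of the genes in the venular, capillary and arterial gates of endothelium in the 3 libraries, with 95% Poisson intervals. Esm1 is near 0 in venular cells and highest in capillary cells at 2 months, and Apln is highest in capillary cells at 1 week.

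The genes overlapped in cells at 1 week. Among endothelial cells with at least 3000 UMIs at 1 week, the 151 cells with Esm1 had a UMI of Prnd, another tip-cell gene, in 68.2% (20.5% of the other cells), of Angpt2 in 45.0% (23.2%), of Apln in 38.4% (19.7%) and of Mcam in 90.7% (68.5%). They had Aplnr in 61.6%, against 66.4% of the others. In the control the 104 cells with Esm1 had Prnd in 6.73% (2.38%), Angpt2 in 5.77% (12.9%) and Apln in 6.73% (5.55%). At 2 months the 105 cells with Esm1 had Prnd in 27.6% (7.05%), Angpt2 in 19.0% (20.4%) and Apln in 17.1% (11.5%). Median depths of cells with and without Esm1 were 15191 and 11315 UMIs at 1 week, 9052 and 9397 in the control and 15269 and 13459 at 2 months, so the operated libraries compare cells of unequal depth.

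Cells with Apln had Aplnr more often than other endothelial cells in each library. The shares were 63.5% against 34.1% in the control (63 cells with Apln), 85.0% against 60.8% at 1 week (374 cells) and 78.5% against 41.0% at 2 months (135 cells). Prnd was found in 17.5%, 43.9% and 33.3% of cells with Apln and in 1.90%, 19.4% and 5.65% of the others. Median depths were again higher in the cells with Apln, 11034 against 9306, 14410 against 11059 and 18454 against 13024 UMIs.

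In fibroblasts Esm1 was at 1.07, 0.422 and 2.45 CPM, which rests on few cells: 1 cell held 28 of 58 UMIs in the control and 1 cell 146 of 239 at 2 months. Without the cell of most UMIs in each library the ratio to the control was 0.717 at 1 week and 1.715 at 2 months, in place of 0.393 and 2.28.

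Mcam was higher in endothelium in both operated libraries, and its ratio at 1 week was above those of the other 9 genes as counted, though below the 4.41 of Apln once the cell with the most Apln UMIs was left out. It was at 51.8 CPM (48.0 to 55.9), 189 (184 to 195) and 111 (106 to 116). The ratios to the control were 3.65 (3.36 to 3.96) and 2.14 (1.96 to 2.34), the latter 1.961 with equal weight per cell. The share of endothelial cells with a UMI was 29.6%, 69.7% and 56.1%, or 13.4%, 38.3% and 24.4% after thinning, beside 2.15%, 3.27% and 4.83% of leukocytes without thinning. In mural cells Mcam was at 265 CPM (252 to 278), 266 (255 to 277) and 321 (306 to 337), so the control and 1 week overlapped, and the 2-month ratio of 1.21 became 0.927 with the stricter cell filter. Mural cells stood above endothelium as a whole in every library, and fibroblasts (4.57, 6.67 and 5.35 CPM) were low.

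The Mcam difference was seen in each endothelial gate. Venular cells were at 43.5, 172 and 116 CPM, ratios of 3.96 (3.29 to 4.81) and 2.67 (2.21 to 3.26). Capillary cells were at 61.0, 278 and 112 CPM, ratios of 4.56 (3.94 to 5.29) and 1.83, with 2.10 at 2 months once lymphatic cells were left out. Endothelium outside both gates was at 51.6, 155 and 104 CPM. Dividing cells, marked by Mki67 or Top2a, made up 5.35%, 19.8% and 6.05% of endothelium, and without them the ratio at 1 week was 3.59.

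The secreted Angptl2 was a fibroblast gene that was higher at 1 week. In fibroblasts it was at 83.4 CPM (81.0 to 85.9), 298 (294 to 302) and 141 (138 to 143), 3.57 times the control at 1 week (3.46 to 3.69) and 1.69 times at 2 months (1.63 to 1.74). After thinning, 21.5%, 50.7% and 29.3% of fibroblasts had a UMI. In the lining gate the levels were 48.0, 91.7 and 103 CPM and in the activated gate 138, 328 and 269 CPM, so the ratio at 1 week was 1.91 and 2.38 within these gates. The 1-week library was above the control in both.

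In mural cells Angptl2 was at 47.9 CPM (42.4 to 53.9), 163 (155 to 172) and 86.5 (78.7 to 94.8), ratios of 3.40 (2.99 to 3.89) and 1.81 (1.55 to 2.11). That is 57.4%, 54.7% and 61.5% of the fibroblast level, whereas 6 fibroblast markers were at 5.71% to 31.8% in the same gate. In the smooth muscle gate it was at 35.5, 118 and 71.9 CPM, ratios of 3.33 and 2.03. In endothelium Angptl2 was at 29.8, 93.5 and 46.3 CPM, with ratios of 3.14 (2.81 to 3.50) and 1.55 (1.37 to 1.75). Here it was at 35.8%, 31.4% and 32.9% of the fibroblast level. The 6 fibroblast markers were at 26.2% to 29.5%, 26.1% to 31.6% and 20.8% to 25.0%, so the 1-week value alone lay within their range. With endothelial cells that had a Pdgfra UMI left out, the endothelial ratio at 1 week was 2.495.

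Angptl4 differed in direction between gates. In fibroblasts it was at 29.3 CPM (27.9 to 30.8), 184 (181 to 187) and 28.5 (27.5 to 29.6). The 1-week library was 6.28 times the control (5.96 to 6.62), and 2 months overlapped the control. As for Angpt1, this ratio also compares different mixtures, since the activated gate held 109 of 3781 control fibroblasts and 3919 of 4748 at 1 week. In mural cells Angptl4 was at 36.6, 100.4 and 29.8 CPM, 2.74 times the control at 1 week (2.36 to 3.21) and 0.813 times at 2 months (0.657 to 1.01). That is 125%, 54.5% and 104% of the fibroblast level. In the same gate 6 fibroblast markers were at 5.92% to 17.7%, 12.1% to 31.8% and 5.71% to 31.3%. The 7 fibroblast markers summed to 2818, 14563 and 4896 CPM there, and the part of fibroblast RNA and of the changed makeup of the gate was not tested.

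Endothelial Angptl4 was at 60.8 CPM (56.7 to 65.2), 82.4 (78.9 to 86.1) and 25.2 (23.0 to 27.7). The ratio was 1.36 (1.25 to 1.47) at 1 week, but 0.706 once endothelial cells with a Pdgfra UMI were left out, 0.624 with stricter gates and 0.827 with equal weight per cell, so its direction at 1 week is not settled. At 2 months it was 0.415 (0.369 to 0.466), 0.295 without Pdgfra-positive cells and 0.546, no longer 2-fold, with the endothelial gates weighted to their control mix. The control level was carried by the capillary gate, at 145 CPM against 15.8 in the venular gate, and capillary cells had less in each operated library, at 78.5 and 59.1 CPM, ratios of 0.541 (0.472 to 0.619) and 0.407 (0.341 to 0.484). In the control, capillary Angptl4 was at 495% of its fibroblast level, where 6 fibroblast markers were at 10.8% to 14.3%. The capillary gate also held adipocyte RNA: 6 adipocyte markers, with Lep at 0 in each library, summed to 154, 0.817 and 88.2 CPM. Its part in the capillary difference was not tested. Venular cells were at 15.8, 38.8 and 5.61 CPM, with ratios of 2.45 (1.79 to 3.44) and 0.355 (0.225 to 0.557). Fibroblast marker sums in that gate were 2502, 8614 and 3615 CPM. Venular Angptl4 at 1 week was at 21.0% of its fibroblast level, where 6 fibroblast markers were at 12.14% to 18.04%. The part of fibroblast RNA in the venular difference was not tested.

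Counted over gates, 2 of the 5 genes with enough UMIs in mural cells were called at 1 week, Angptl2 and Angptl4, both higher (background 24.9%). At 2 months 1 of 5 was called, Angpt2, higher (background 8.36%), and between the operated libraries 1 of 5, Angptl4, lower at 2 months (background 16.0%). In fibroblasts 5 of 10 were called at 1 week, with Apln, Angptl2 and Angptl4 higher and Tek and Esm1 lower (background 22.3%). There 3 of 9 were called at 2 months, with Apln and Esm1 higher and Tie1 lower (background 9.60%, the Tie1 ratio being 0.506 with equal weight per cell). Between the operated libraries 6 of 10 were called, with Tek and Esm1 higher and Apln, Aplnr, Angptl2 and Angptl4 lower at 2 months (background 17.2%). Fibroblast Tie1 was at 0.787% of its endothelial level in the control and 0.283% at 2 months, near the medians of 7 endothelial markers (0.708% and 0.282%). Fibroblast Aplnr was at 0.370% at 1 week and 0.186% at 2 months, below the lowest of these markers (0.419% and 0.222%). The Tie1 and Aplnr calls were both lost after subtraction of leukocyte levels. The median log2 ratios of the members with enough UMIs were 0.88, 0.32 and 0.27 in mural cells and 0.45, 0.23 and -0.63 in fibroblasts, in the order of these comparisons, and those of all genes lay between -0.01 and 0.02.

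In the venular gate 5 of 9 genes were higher at 1 week, namely Apln, Aplnr, Mcam, Angptl2 and Angptl4, and none lower (background 12.9%). Of these, Angptl2 and Angptl4 at 1 week were at 18.06% and 21.03% of their fibroblast levels in this gate. There 6 fibroblast markers were at 12.14% to 18.04%, and the part of fibroblast RNA in both calls was not tested. The ratio of Angptl2 stayed at 2.096 or above under 11 alternative settings. The call of Angptl4 was lost under 4 of 11 alternatives, with values of 1.991 without doublets, 1.965 with equal weight per cell, 1.736 after subtraction of leukocyte levels and 1.805 without Pdgfra-positive cells. At 2 months 4 of 8 were called, with Apln, Mcam and Angptl2 higher and Angptl4 lower (background 7.24%), and between the operated libraries 1 of 9, Angptl4, lower (background 7.45%). All genes in the venular gate had a median log2 ratio of 0.15 to the control at both times, a small general shift, and the members had medians of 1.20 and 0.56. In the capillary gate 4 of 9 were higher at 1 week, namely Apln, Mcam, Aplnr and Angpt2 (background 16.5%). The call of Angpt2 (2.07) held under 7 of 11 alternatives (1.599 to 2.263), and that of Aplnr was lost with stricter gates (1.867). There 2 of 9 were called at 2 months, Angptl2 higher and Angptl4 lower (background 4.91%), and 3 of 9 between the operated libraries, with Apln, Aplnr and Mcam lower (background 15.8%), and the member medians were 0.70, 0.08 and -0.41. The call of Aplnr there was lost when lymphatic cells were left out (0.510) and with stricter gates (0.521). Angptl2 at 2 months in the venular gate depended on doublets: its ratio of 2.15 became 0.748 when cells called as doublets were removed, and it passed 2-fold under 6 of 11 alternatives.

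Other genes of the same pathways were taken from lists made with earlier results of these data known. The counts below are to be read against the shares of all genes called, which at 1 week were 16.1% in endothelium, 24.9% in mural cells and 22.3% in fibroblasts, and at 2 months 6.55% in endothelium. Of 10 further angiopoietin-Tie genes with enough UMIs in endothelium, 3 were lower and none higher at 1 week (16.1% of all genes were called either way), with a list median log2 ratio of -0.39. They were Klf2, a shear-induced transcription factor at 1498 CPM in the control and 541 at 1 week (0.361 of the control), Thbd, which encodes thrombomodulin (0.413), and the third angiopoietin ligand gene Angpt4 (0.134, from 43 and 11 UMIs). At 2 months only Angpt4 was called (0.151, from 43 and 9 UMIs). A set of 12 dissociation stress genes also differed in this gate, with sums of 15188, 6723 and 11932 CPM, and its part in the Klf2 difference was not tested. In mural cells Angpt4 was at 31.2 CPM in the control and 1.03 at 1 week, and 4 of 9 genes of the list were lower there (background 24.9%), the others being Ptprb, Foxo1 and Klf2. The 6 smooth muscle markers summed to 32140 CPM in control mural cells and 8000 at 1 week, as the makeup of that gate changed. In endothelium they summed to 1499, 446 and 722 CPM. The part of smooth muscle cells and their RNA in the differences of either gate was not tested.

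Of 15 further tip-cell genes in endothelium, 3 were higher and 1 lower at 1 week (list median 0.35, beside 16.1% of all genes called either way). Prnd was at 7.67, 99.1 and 29.3 CPM, 12.9 times the control at 1 week (10.6 to 15.9). Nid2, a basement membrane gene, was 4.66 times the control (3.97 to 5.49) and Cxcr4, a chemokine receptor, 2.83 times (2.41 to 3.33). Adm, which encodes adrenomedullin, was at 0.316 of the control. At 2 months Prnd (3.82) and Flt4 (4.07) were higher and Pgf (0.492) lower. Flt4, the receptor for lymphangiogenic growth factors, was at 11.9 CPM (155 UMIs) in the control and 48.4 CPM (874 UMIs) at 2 months, beside lymphatic marker sums of 65.1, 238 and 1085 CPM.

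Of 8 stalk and quiescence genes in endothelium, 1 was higher (Hey1, 2.16) and 1 lower (Klf4, 0.361) at 1 week, with a list median of -0.06, a share near the 16.1% of all genes, and at 2 months 1 was higher (Vwf, 2.17). Of 9 targets of hypoxia-inducible factors 1 was lower at 1 week (Ndrg1, list median -0.12, background 16.1%) and 1 higher at 2 months (Egln3). In fibroblasts 2 of 10 of these targets were higher at 1 week, Car9 and Pdk1 (3.01), and 1 lower, Ndrg1 (background 22.3%). Neither apelin processing gene with enough UMIs in endothelium was called at either time.

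Among further angiopoietin-like and lipase genes, Lpl, the lipoprotein lipase that Angptl4 inhibits, was at 105 CPM in control endothelium and 28.4 at 1 week (0.270). Gpihbp1, which anchors the lipase to capillaries and helped define the capillary gate, was at 294, 151 and 110 CPM. Angptl1 was higher at 1 week in endothelium (2.67, with an interval of 2.46 to 2.91), in mural cells (8.62) and in fibroblasts (2.60). Of the 7 genes of this list with enough UMIs in endothelium 1 was higher and 2 were lower at 1 week (list median -0.66, background 16.1%), and none was higher and 3 were lower at 2 months. Of 9 targets of PPAR factors in endothelium 3 were lower at 1 week, Cd36, Fabp4 and Pdk4 (list median -0.26, background 16.1%). The mix of endothelium also differed: capillary-gate cells were 359 of 1270, 285 of 1784 and 195 of 1157. The 6 adipocyte markers summed to 52.3, 17.4 and 16.4 CPM in endothelium. The part of the mix and of adipocyte RNA in these endothelial differences was not tested. 

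Among 4 genes of Mcam ligands, endothelium at 1 week had Lgals1 higher (3.17) and Ntn1 lower (0.263), and mural cells had Lama4 (2.46) and Lgals1 (2.83) higher and Ntn1 lower. Lama4 encodes a laminin chain of vessel basement membranes. None of the 4 was called in endothelium at 2 months.

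Genes most like each member were taken by Pearson's r of log2 (CPM + 10) over 18 points, 6 gates in 3 libraries, which share libraries and depth. Among 8904 genes, Tie1 was nearest to Cdh5 (0.998), which defined the endothelial gate, Myct1 (0.998) and Egfl7 (0.997), and Tek to Fgd5 (0.995), Prex2 (0.991) and Jam2 (0.989). Aplnr was nearest to Stap2 (0.992), Sox7 (0.992) and Emcn (0.987), and Apln to Cenpt (0.965), Ttc9 (0.933) and Sox7 (0.931). Angpt2 was nearest to Mcam (0.935), Pear1 (0.934) and Nr2f2 (0.924), and Mcam to Pear1 (0.944), Chn1 (0.939) and Angpt2. Esm1 was nearest to Sez6l2 (0.972), Sema7a (0.966) and Notch4 (0.961). Angptl2 was nearest to the collagen genes Col6a3 (0.979) and Col6a2 (0.972) and to Scarf2 (0.977), and Angpt1 to Hoxc10, Casc4 and Hoxc9 (0.965). Angptl4 had no gene above 0.894 (Cd320).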

How the data were processed

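Live-sorted cells of 3 pooled tissue samples were profiled, 1 library per group. The deposited matrices hold raw UMI counts per gene and barcode, as whole numbers. Cell Ranger 5.0.0 (control, 1 week) and 5.0.1 (2 months) wrote them, per the file headers, whereas the submitters' processing notes name version 6.0.1 and mm10. The libraries held 96782789, 179561680 and 159333121 UMIs.

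Counts were summed over the cells of each gate and scaled to the gate's total. Venular and capillary gates left out 37, 48 and 12 cells that met both. Scrublet, as built into scanpy 1.11.5, marked 327, 529 and 460 doublets, which were removed only in an alternative. Shares were also computed after thinning each cell to 3000 UMIs. The summing and ratio script was tested on simulated data. Promoters came from RefSeq and positions from GENCODE. The software was Python 3.11.15, numpy 2.4.6, scipy 1.17.1, pandas 2.3.3 and matplotlib 3.10.9.

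Genes named beyond the 10 members were, per list and comparison, at most 4 of those called with the largest ratios. Members, lists, gates and alternatives were chosen with earlier results of these data known. Alternatives were a stricter cell filter, doublet removal, stricter gates, equal weight per cell, subtraction of leukocyte levels, other count and fold thresholds and a fixed mix of endothelial gates. Leaving out dividing cells, single cells with most UMIs, cells with Pdgfra, lymphatic cells, and mural cells low in Myh11 was added after seeing the data.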

Additional observations from a re-analysis of the deposited data

Results flagged for a closer look

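Angptl4 had opposite directions at the 2 times in endothelium, 1.36 times the control at 1 week and 0.415 times at 2 months. Its ratio at 1 week was, however, 0.706 without endothelial cells that had a Pdgfra UMI, 0.624 with stricter gates and 0.827 with equal weight per cell, which puts both times below the control. The venular gate had the same split, at 2.45 and 0.355 times the control. The capillary gate at 1 week, at 0.541 times the control, went the other way from the venular gate. Angpt1 in mural cells was at 0.776 of the control at 1 week and 1.245 times at 2 months. Esm1 in fibroblasts was at 0.393 of the control at 1 week and 2.28 times at 2 months, but 1 cell held 28 of the 58 control UMIs and 1 cell 146 of 239 at 2 months. Without the cell of most UMIs in each library the ratios were 0.717 and 1.715. With 1 library per group none of these differences was tested.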

How the results depend on the processing

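At 1 week Apln (2.27 to 4.41), Aplnr (2.08 to 2.76), Angptl2 (2.495 to 3.67) and Mcam (3.245 to 4.06) stayed at least 2-fold above the control in endothelium under all 12 alternatives that gave a ratio. So did Apln (7.09 to 9.28), Angptl2 (3.30 to 3.78) and Angptl4 (5.90 to 6.64) in fibroblasts, with Tek lower (0.123 to 0.210), under 9 of 9. Direction reversed for Angptl2 in the venular gate at 2 months (0.748 without doublets, against 2.15) and for Esm1 in fibroblasts at 1 week (1.39 with stricter gates, against 0.393). The endothelial Angptl4 ratio at 1 week, 1.36 and not called, also turned, to 0.706 without Pdgfra-positive cells, 0.624 with stricter gates and 0.827 with equal weight per cell. The cause was not tested.

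The number of members called at 2 months against the control in endothelium, 2 as reported, was 1 with equal weight per cell (Mcam lost), 1 with the control mix of endothelial gates (Angptl4 lost) and 6 at a fold of 1.5. Against 1 week it was 1 after subtraction of leukocyte levels and 5 at a fold of 1.5. In mural cells, 1 as reported, the count at 2 months against the control was 2 with the stricter cell filter, 2 at a fold of 1.5 and 2 with Myh11 cells only, and against 1 week 2 with stricter gates, 3 at a fold of 1.5 and 2 without dividing cells. In fibroblasts at 2 months, 3 as reported, it was 5 after subtraction of leukocyte levels and 6 at a fold of 1.5. In the venular gate, 2 months against 1 week, it was 2 in place of 1 under 5 alternatives and 3 at a fold of 1.5. In the capillary gate at 2 months it was 1 with stricter gates and 4 without lymphatic cells or at a fold of 1.5, and 5 of 9 against 1 week at that fold. No paired analysis was possible because each group was 1 library. Genes with under 50 UMIs in the 2 sums were not compared.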

Other observations

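The endothelial gate held 8, 36 and 102 cells that were lymphatic by Prox1 and Mmrn1 UMIs. In the 102 such cells at 2 months Tie1 was at 255 CPM, Tek at 140.5 CPM, Angpt2 at 64.9 CPM and Apln at 49.9 CPM, whereas Aplnr was at 11.4 CPM and Esm1 had 1 UMI. Aplnr there was far below its level of 116 CPM in the whole endothelial gate of that library. The control and 1-week libraries held fewer than 50 such cells and give no comparison.

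In fibroblasts at 1 week 6 of 11 angiopoietin-Tie pathway genes were lower than in the control and none was higher, with a median log2 ratio of -1.25, where 22.3% of all genes were called either way. The 12 dissociation stress genes summed to 10934, 5830 and 7620 CPM in that gate, and their part in the difference was not tested. Among the 6 lower angiopoietin-Tie pathway genes were Angpt4 (0.0647 of the control), Thbd (0.195) and Foxo1 (0.253), the transcription factor that angiopoietin signalling restrains. In mural cells at 1 week 3 of 11 tip-cell genes were higher, Nid2 (14.4 times the control), Unc5b (12.4), a netrin receptor, and Plaur (5.37), the urokinase receptor, where 24.9% of all genes were called either way. In that gate the marker sums of dividing cells were 4.40, 467 and 66.4 CPM, of fibroblasts 2818, 14563 and 4896, of pericytes 1655, 6918 and 4346 and of smooth muscle 32140, 8000 and 24217, and their part in the difference was not tested.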
